A study of Homo sapiens with 5 samples.

Results

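The liver X receptors (LXR) and the genes of cholesterol efflux were followed in RS4.11, the established human leukemia line usually written RS4;11, after inhibition of the kinase GSK-3. The set was a list of 8 gene symbols, NR1H2, NR1H3, ABCA1, ABCG1, MYLIP, APOE, SOAT1 and ABCA7. Each was read from the probe whose annotation names that gene alone, and where several did, from the probe with the highest mean over the arrays. Of the 8 genes, 7 had such a probe, each had 1, and they stand among 18417 genes tested. NR1H2 was not analysed here.

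Total RNA was measured on 5 Affymetrix whole-transcript arrays. Control cells (n = 2) had received only the solvent DMSO, and treated cells (n = 3) the GSK-3 inhibitor SB216763 at 10 uM for 20 h. The line carries a rearranged MLL gene and is 1 cell line, grown in culture. No label tells whether the arrays hold RNA of separate cultures. The p-values therefore cover the spread between these 5 arrays alone, and that spread may be technical.

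LXR are nuclear receptors that bind oxysterols, the oxidised forms of cholesterol, and act on DNA as pairs with the retinoid X receptors (RXR). When cell cholesterol is high they turn on genes that export sterols, store them or restrict their uptake, and macrophages are the cells in which this program is best known. The opposite arm is SREBP2, which turns on cholesterol synthesis and uptake when sterols are scarce. NR1H3 and NR1H2 encode LXR-alpha and LXR-beta. ABCA1, ABCG1 and ABCA7 encode ATP-driven lipid transporters, APOE a lipid-carrying apolipoprotein, MYLIP a ubiquitin ligase that limits lipoprotein uptake, and SOAT1 the enzyme that esterifies cholesterol for storage.

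The promoters of ABCA1 and ABCA7 are shown because these 2 genes were the members called by the test. Each run holds the 250 bases before the transcript start, read 5′ to 3′ on the gene's strand, from RefSeq on GRCh38.p14. ABCA1 lies on the minus strand at chr9:104928156-104928405. Its capitals mark a CACGTG E-box and, closer to the start, a match to the loose direct repeat described next. ABCA7 lies on the plus strand at chr19:1039857-1040106, and its capitals mark a CCAAT box.
ABCA1: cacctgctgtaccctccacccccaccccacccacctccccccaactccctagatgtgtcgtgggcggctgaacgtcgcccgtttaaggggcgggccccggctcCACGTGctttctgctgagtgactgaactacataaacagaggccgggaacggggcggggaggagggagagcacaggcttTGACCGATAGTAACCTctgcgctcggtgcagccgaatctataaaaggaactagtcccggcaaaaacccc
ABCA7: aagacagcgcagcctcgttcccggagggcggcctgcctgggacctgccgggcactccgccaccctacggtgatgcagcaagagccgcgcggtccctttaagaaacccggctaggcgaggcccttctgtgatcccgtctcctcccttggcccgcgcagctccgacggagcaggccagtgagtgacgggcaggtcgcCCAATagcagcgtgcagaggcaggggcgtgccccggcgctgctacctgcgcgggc

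An LXR-RXR pair typically binds 2 copies of AGGTCA in the same direction, 4 bases apart. RefSeq promoters were found for 7 of the 8 genes, 12 windows in all, and each was searched on both strands. The strict repeat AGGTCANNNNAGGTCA was in none of the 12 windows and in 0.0142% of all 35116 windows. A looser form, NGGTNANNNNNGGTNA, was in 0.53% of all windows and in 1 of the 12, that of ABCA1. The match there reads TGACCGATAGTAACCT on the gene's strand, from 69 to 54 bases before the start, and is the repeat in reverse orientation. The loose form, in which N is any base, was chosen with the known ABCA1 element in mind. The core AGGTCA alone was found for NR1H3, in 1 of the 12 windows (12.1% of all windows). The E-box CACGTG was found for ABCA1, also in 1 of the 12 (6.34%). CCAAT was present for ABCA7, APOE, MYLIP, NR1H3 and SOAT1, in 6 of the 12 windows (32% of all windows). NR1H3 had 4 of the 12 windows and APOE 3. The sterol element TCACNCCAC, bound by SREBP, was in none of the 12 windows (0.883%). Each strict repeat also counts as a match to the core. A match describes letters in this window and says nothing about binding.

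Values are log2 expression as deposited, and differences are SB216763 minus control. Array medians ran from 6.77 to 6.84 and the arrays correlated across probes with a Pearson r of at least 0.989. Background was set on each array by 341 olfactory receptor genes, at their 95th percentile (5.98 to 6.19). A gene was called when limma's p-value, adjusted by Benjamini-Hochberg over all 18417 genes, was under 0.05, which held for 2418 genes or 13.1%. Higher calls made up 7.21% of genes and lower calls 5.92%, and the median difference over all genes was 0.00. With either control array left out, limma called 1 gene or 0 genes in all and no member or pathway gene described below. The unadjusted p was then under 0.05 for 3603 and 3960 genes.

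Cell identity was read from markers. Of 9 measured B cell precursor markers, IGLL1, CD79B and PAX5 were above background on both control arrays. CD22, CD24, DNTT, RAG1 and VPREB1 were above it on no array. Of 11 monocyte and macrophage markers, 8 were above background on both control arrays, among them LYZ, CD68, TYROBP, CSF1R and CD14, whereas CD163, MRC1 and MSR1 were above it on none. Of 8 T and NK cell markers, NKG7, CD4 and CD8A were above background on all arrays, and the other 5, among them the defining T cell markers CD3D, CD3E and CD3G, on none. Of 6 hepatocyte markers, SERPINA1 and APOA1 were above it on all arrays, and ALB, APOB, TTR and FGB on none. B cell precursor is the usual description of RS4;11. These markers go against that description, with 5 of 9 precursor markers above background on no array and 8 of 11 monocyte and macrophage markers above it on all. The cells are therefore called by the label RS4.11 alone, and their identity was not tested.

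Of the 7 measured genes, the transporters ABCA7 and ABCA1 rose with SB216763 and the other 5 did not pass the test. ABCA7 went up 2.07-fold. ABCA1 went up at least 1.18-fold by its means, since its control arrays were at background. That value carries no interval. The receptor gene NR1H3, the exporter ABCG1, the ligase MYLIP, the apolipoprotein APOE and the esterifying enzyme SOAT1 differed by 0.09 or less in either direction. The control and treated arrays did not overlap for ABCA7 and ABCA1, and overlapped for the other 5, where 41.4% of all genes did not overlap. With 2 calls among 7 genes and no test over the list, the count is not set apart from the 13.1% called over all genes. An unadjusted p under 0.05 was reached by the same 2 genes and by 26.5% of all genes.

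**Figure D1:**
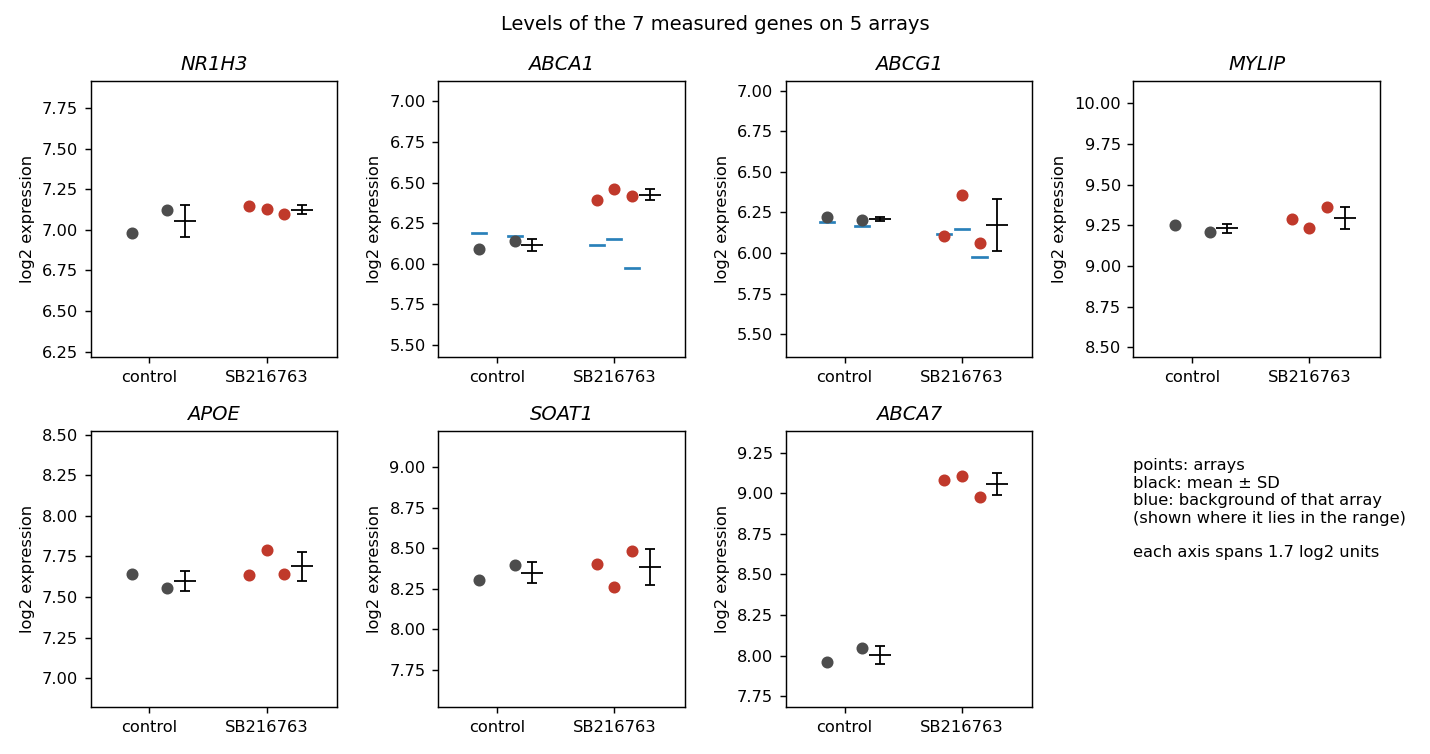
Log2 expression (vertical axes, each spanning 1.7 log2 units) of the 7 genes on the 2 control and 3 SB216763 arrays, with the mean ± SD in black and each array's background in blue. ABCA7 moves up to a mean of 9.06, ABCA1 moves from under its background lines to above them, and the points of the other 5 genes overlap between groups.

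NR1H3, the receptor gene measured here, read 6.98 and 7.12 on the control arrays. It read 7.15, 7.13 and 7.09 on the SB216763 arrays. Control replicate 1 was the lowest array and the other 4 lay close together, above background throughout. The difference was 0.07 (SE 0.08, adjusted p = 0.665 by limma), with a 95% interval of -0.12 to 0.26. It was 0.14 without control replicate 2 and 0.00 without control replicate 1. With 2 control arrays such shifts follow from the gap between them, so they cannot tell whether either array is off.

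ABCA7, an A-subfamily transporter that moves phospholipid to apolipoproteins and is needed for phagocytosis, showed the only large change of the set. Its control arrays read 7.96 and 8.05, and its SB216763 arrays 9.08, 9.11 and 8.98. Every treated array lay above both control arrays, by far more than the spread within either group. The means were 8.004 ± 0.06 (SD, n = 2) and 9.06 ± 0.07 (SD, n = 3), a difference of 1.05 (SE 0.08, adjusted p = 0.000601 by limma) with a 95% interval of 0.86 to 1.24. By unadjusted p it ranked 60 of 18417 genes, and 0.331% of genes had a larger positive difference. The difference lay between 1.01 and 1.09 over all 14 alternative settings and the call held in 12. It was lost without control replicate 1 (adjusted p = 0.0572) and without control replicate 2 (0.0557).

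ABCA1, which loads cholesterol onto lipid-poor apolipoprotein A-I and is among the best known LXR targets, changed by much less and near the detection limit. It read 6.09 and 6.14 on the control arrays, under the background of each. On the SB216763 arrays it read 6.39, 6.46 and 6.42, above background on all 3. The groups did not overlap, and the fitted difference was 0.31 (SE 0.08, adjusted p = 0.0364 by limma), with a 95% interval of 0.13 to 0.48. Because the control level was not above background, the change is given as at least 1.18-fold, the treated mean against the background of the control arrays. That value is taken from means and carries no error. The interval of the fitted difference, from 0.13 upward, also allows a smaller change. For the ABCA1 difference, the replicate block and leaving out SB216763 replicate 3 give the same value, since no control carries that number. The gene stayed out when only genes above background on all arrays were tested. The difference kept its sign in all 13 other settings, from 0.27 to 0.33. The call held in 5 of them, with adjusted p from 0.0126 to 0.174 over the 13. It was lost without control replicate 1 (0.174), control replicate 2 (0.128), SB216763 replicate 1 (0.123) and SB216763 replicate 3 (0.0850), and with the replicate block (0.116).

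ABCG1, which passes cholesterol on to high-density lipoprotein and is the usual partner of ABCA1 in LXR responses, stayed at the edge of detection. Its control arrays read 6.22 and 6.20 and its SB216763 arrays 6.10, 6.36 and 6.06. The 2 control arrays lay inside the range of the treated arrays, and SB216763 replicate 1 was under background. The difference was -0.04 (SE 0.10, adjusted p = 0.876 by limma), with a 95% interval of -0.28 to 0.21. The difference seen for ABCA7, 1.05, lies outside this interval, but readings this close to background limit what the interval shows about ABCG1 RNA.

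MYLIP, the ubiquitin ligase also called IDOL, read 9.25 and 9.21 on the control arrays and 9.29, 9.23 and 9.36 on the SB216763 arrays. SB216763 replicate 2 fell between the control arrays. The difference was 0.07 (SE 0.08, adjusted p = 0.689 by limma), with a 95% interval of -0.12 to 0.25.

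APOE, the apolipoprotein that macrophages secrete with exported cholesterol, read 7.64 and 7.56 on the control arrays. The SB216763 arrays read 7.63, 7.79 and 7.64. SB216763 replicate 2 was the highest array, and the other treated arrays matched control replicate 1 closely. The difference was 0.09 (SE 0.09, adjusted p = 0.605 by limma), with a 95% interval of -0.11 to 0.29.

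SOAT1, the acyltransferase of cholesterol ester storage, read 8.31 and 8.39 on the control arrays and 8.40, 8.26 and 8.48 on the SB216763 arrays. SB216763 replicate 2 was the lowest of the 5 and SB216763 replicate 3 the highest. The difference was 0.03 (SE 0.09, adjusted p = 0.880 by limma), with a 95% interval of -0.18 to 0.25. It kept its sign in 9 of the 14 alternative settings.

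For NR1H3, ABCG1, MYLIP, APOE and SOAT1 the intervals extend to 0.29 at most on the upper side and to -0.28 on the lower. Changes inside a gene's own interval are not excluded by these 5 arrays. The intervals are not adjusted for the number of genes, so their ends do not give the smallest change that could be called. No setting called any of these 5 genes.

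**Figure D2:**
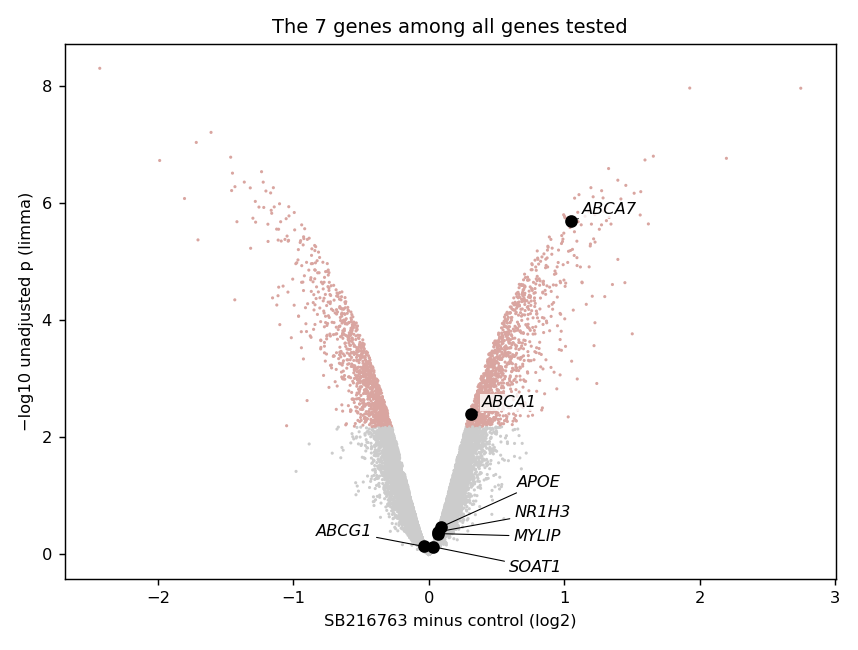
Each point is 1 of the 18417 genes, with the log2 difference on the horizontal axis and −log10 of limma's unadjusted p on the vertical axis; called genes are pink and the 7 genes black. ABCA7, at 1.05, lies high in the right arm, ABCA1, at 0.31, near the edge of the called genes, and the other 5 at the foot of the plot.

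**Figure D3:**
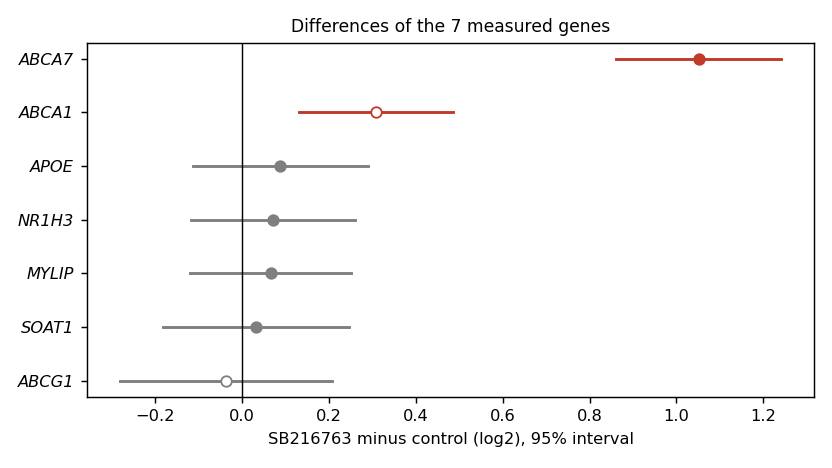
Differences of the 7 genes with 95% intervals from limma, in red where called and grey where not; an open point marks a gene not above background on all 5 arrays. The ABCA7 interval, 0.86 to 1.24, lies to the right of the other 6, and the intervals of 5 genes include 0.

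The A subfamily of ABC transporters, to which ABCA7 and ABCA1 belong, was read as a whole. Of its 12 measured genes, both members included, 3 rose, namely ABCA7, ABCA1 and ABCA5. ABCA2 was the 1 that fell, the other 8 were not called, and the median difference was 0.07. Over all genes tested 13.1% were called. ABCA5, a transporter of late endosomes and lysosomes, rose from 7.05 ± 0.02 (SD, n = 2) to 7.60 ± 0.17 (SD, n = 3), by 0.55 (SE 0.11, adjusted p = 0.0166 by limma). ABCA2, another endolysosomal transporter, fell by 0.42 (SE 0.09, adjusted p = 0.0208), from 9.29 to 8.87. ABCA10 just missed the threshold (0.54, adjusted p = 0.05004 by limma), and like 6 further A-subfamily genes it was above background on no array. ABCA7, ABCA5 and ABCA2 were above background on all 5 arrays, ABCA3 on 4 and ABCA1 on 3. Without SB216763 replicate 1, ABCA7 was the 1 member of the subfamily called (ABCA5 adjusted p = 0.0724, ABCA2 0.0509). ABCA2 was also lost without SB216763 replicate 3 (adjusted p = 0.0550) and with the replicate block (0.0687). Of the 5 G-subfamily genes limma called 0, and 0 had an unadjusted p under 0.05. ABCG4 was the 1 G-subfamily gene above background on all arrays, at -0.06 (SE 0.08).

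LXR works with RXR and with shared coregulators. RXRA and RXRB, the 2 RXR genes above background, differed by 0.03 (SE 0.08) and -0.08 (SE 0.09), with adjusted p of 0.891 and 0.665 by limma. RXRG was above background on no array. Among 11 measured partners and coregulators, 3 rose and 8 were not called, and the median difference was 0.21 (over all genes 7.21% rose). The 3 were the coactivators NCOA1 at 0.42 (SE 0.10) and NCOA2 at 0.34 (SE 0.08), which bind ligand-loaded nuclear receptors, and the acetyltransferase CREBBP at 0.45 (SE 0.09). The acetyltransferase EP300 gave 0.31 (adjusted p = 0.0770), and the corepressor enzyme HDAC3 -0.05 (adjusted p = 0.730). None of the 3 calls held without SB216763 replicate 1 or without SB216763 replicate 3.

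Other LXR target genes, 14 measured, split into 1 that rose, 2 that fell and 11 not called (median difference -0.04). Among all genes 13.1% were called. SREBF1, which encodes SREBP1 and is the LXR target that drives fatty acid synthesis, read 7.86 and 8.06 on the control arrays. It read 7.71, 7.84 and 7.72 on the SB216763 arrays, all below the controls. Its difference was -0.20 (SE 0.09, adjusted p = 0.227 by limma), and 1 of 14 alternative settings called it. SCD, a desaturase, and FASN, the fatty acid synthase, both also SREBP1 targets, fell by 0.99 (SE 0.12) and 0.62 (SE 0.08). LPCAT3, which remodels phospholipids, and PLTP, a phospholipid transfer protein, differed by -0.04 (SE 0.08) and -0.05 (SE 0.08). The 5 targets ABCG5, ABCG8, SMPDL3A, LPL and CETP were above background on no array.

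The target that rose was CD36, a scavenger receptor for oxidised lipoprotein that monocytes carry. It read 9.44 and 9.56 on the control arrays and 10.67, 10.29 and 10.73 on the SB216763 arrays, a difference of 1.07 (SE 0.14, adjusted p = 0.00326 by limma). Some monocyte and macrophage markers moved in the same arrays as ABCA7 and CD36: 3 of 11 rose, 1 was called lower and 7 were not called. An unadjusted p under 0.05 was reached by 6, of which 5 were higher and 1 lower. Among all genes 13.1% were called and 26.5% had an unadjusted p under 0.05, and no test compared the markers with them. Over the 11 markers the median difference was 0.11. The log2 summed level was 13.21 to 13.27 on the control arrays and 13.95 to 13.99 on the SB216763 arrays. That sum is weighted to the brightest genes, here LYZ, TYROBP and CD68, the 3 that rose. CD68 rose by 1.00, LYZ by 0.78 and TYROBP by 0.70. FCER1G differed by 0.40 and ITGAM by 0.27 (unadjusted p = 0.0297 and 0.0371 by limma). CSF1R differed by 0.11, CD14 by -0.0027 and MARCO by -0.12, and neither these nor FCER1G and ITGAM were called. MSR1, called lower, was above background on no array. For B cell precursor markers 0 of 9 were called by limma, 0 at an unadjusted p under 0.05, and the log2 summed level was 9.62 to 9.66 and 9.44 to 9.70. For T and NK cell markers it was 11.37 to 11.43 and 12.10 to 12.17, through NKG7 and CD4, which rose. The part of these markers in the ABCA7 and CD36 results was not tested, and in bulk RNA a change in the number of cells of a type and in RNA per cell cannot be told apart.

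**Figure D4:**
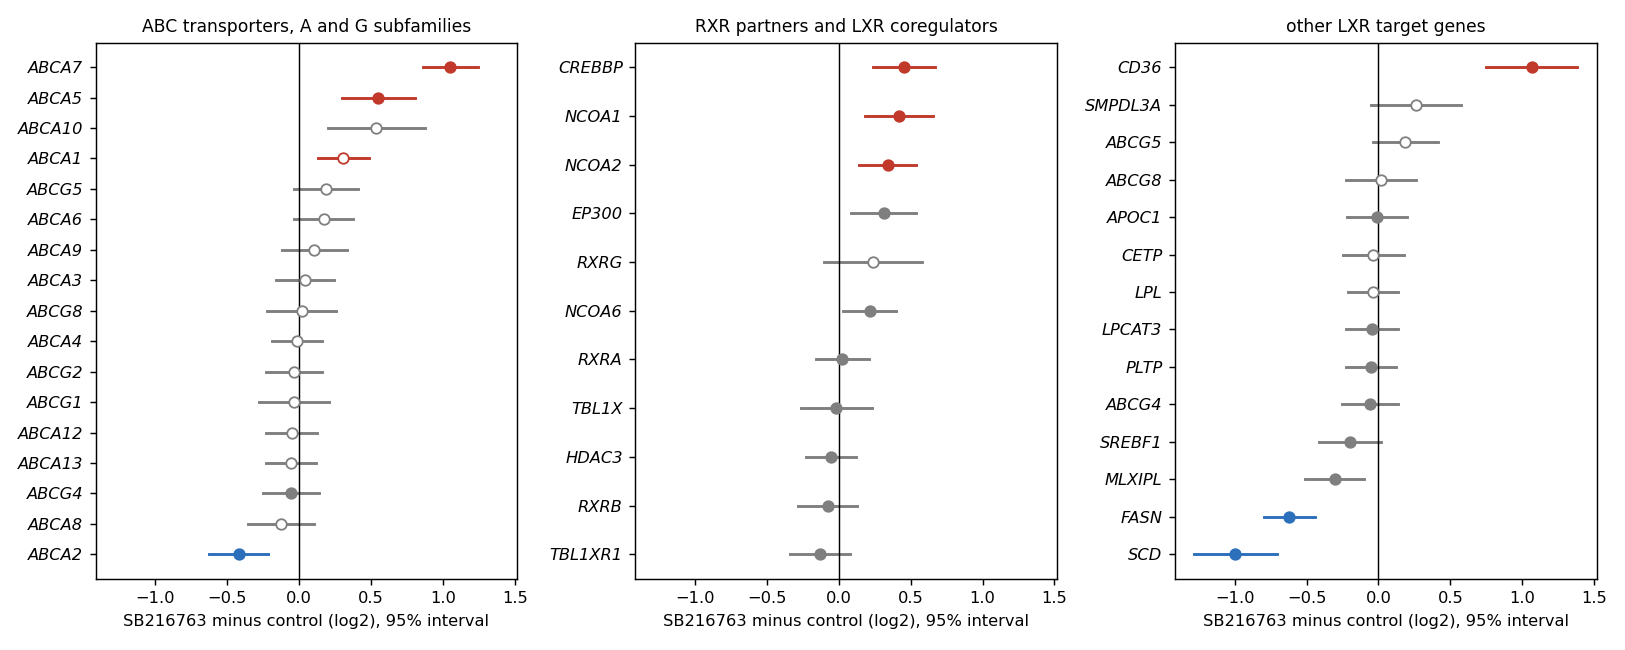
Log2 differences with 95% intervals for the A and G subfamilies of ABC transporters, the RXR partners and coregulators, and other LXR target genes; red marks genes called higher, blue lower, grey not called, and open points genes not above background on all 5 arrays. ABCA7 and CD36 stand at 1.05 and 1.07, and ABCG1, ABCG4, RXRA and LPCAT3 lie around 0.

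In lysosomal and intracellular sterol transport, 5 of 14 genes rose, 9 were not called and the median difference was 0.16. Higher calls made up 7.21% of all genes, and no test compared the list with them. NPC1, the membrane protein that exports cholesterol from lysosomes, rose by 0.76 (SE 0.09) and its soluble partner NPC2 by 0.47 (SE 0.11). LIPA, the lysosomal acid lipase that frees cholesterol from esters, rose by 0.37 (SE 0.10). GRAMD1B and GRAMD1A, which carry cholesterol from the plasma membrane to the endoplasmic reticulum, rose by 0.45 (SE 0.09) and 0.34 (SE 0.08). The 5 calls became 1 without SB216763 replicate 1, 2 without SB216763 replicate 3 and 2 with the replicate block.

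For sterol uptake, 7 genes were measured: 1 rose, 2 were called lower and 4 were not called, around a median difference of -0.05. The share called over all genes was 13.1%. SORL1, an endosomal sorting receptor, rose by 0.88 (SE 0.08). LRP8, an apolipoprotein E receptor and a substrate of the MYLIP ligase, fell from 9.98 ± 0.05 (SD, n = 2) to 9.30 ± 0.04 (SD, n = 3). VLDLR, another MYLIP substrate, differed by 0.12 (SE 0.08, adjusted p = 0.412 by limma). The scavenger receptor MSR1 was the second called lower, above background on no array, and its call was lost without SB216763 replicate 1 and without SB216763 replicate 3.

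Sterol ester storage was covered by 6 genes, of which 1 fell and 5 were not called (median difference 0.06, 13.1% called over all genes). The 1 was ACAT2, which fell by 0.78 (SE 0.09). ACAT2 is a thiolase at the start of cholesterol synthesis rather than a storage enzyme. PLIN2, which coats lipid droplets, gave 0.34 (adjusted p = 0.149 by limma). Without SB216763 replicate 2, 1 gene of the list was called higher. The ester-making SOAT2 and the ester hydrolase NCEH1 differed by -0.02 (SE 0.11) and -0.07 (SE 0.10), and SOAT2 was at the edge of background. Of 7 measured genes that make or remove oxysterols, the ligands of LXR, limma called 0. At an unadjusted p under 0.05 there was 1, CYP11A1, the side-chain cleavage enzyme, which was above background on no array. CYP46A1 and SULT2B1 were the 2 above background on all arrays, at 0.10 (SE 0.07) and -0.01 (SE 0.15), while CH25H and CYP27A1 were above it on none.

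In the opposing SREBP2 arm, 6 of 10 measured genes fell, none rose and 4 were not called, and the median difference was -0.53. INSIG1, which holds SREBP in the endoplasmic reticulum and is itself an SREBP target, fell by 1.72 (SE 0.09). DHCR7 and SQLE, enzymes of cholesterol synthesis, fell by 1.80 (SE 0.12) and 1.16 (SE 0.09), and HMGCS1 by 0.75 (SE 0.11). Across all 9 lists, which share some genes, 25 of 83 measured genes were called, 13 higher and 12 lower. The members ABCA7 and ABCA1 are among the 13. Over all genes tested 13.1% were called, 7.21% higher and 5.92% lower, and no test compared the lists with other genes or with one another. Leaving out SB216763 replicate 1 gave 13 and SB216763 replicate 3 gave 16. Leaving out either control array gave 0, where 29 and 26 genes had an unadjusted p under 0.05.

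The genes whose pattern over the 5 arrays was most like that of the called members were found by Euclidean distance between log2 values centred on each gene's mean, among genes above background on all arrays. For ABCA7 these were ZNF581, a zinc finger gene (distance 0.0837), CD68, the macrophage glycoprotein (0.0862), and ITGB7, an integrin subunit (0.104). Their differences were 1.08, 1.00 and 1.11, beside 1.05 for ABCA7. For ABCA1 these were ATP6V1G1, a subunit of the lysosomal proton pump (0.0312), PML, the nuclear body protein (0.0415), and MAGEF1 (0.0420), with differences of 0.29, 0.30 and 0.32. With 5 arrays in 2 groups, likeness depends mostly on the size of the difference.

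By RefSeq gene order, ABCA7 lies between CNN2 and ARHGAP45 and overlaps no annotated gene. CNN2 differed by 0.17 (SE 0.08, adjusted p = 0.222 by limma) and ARHGAP45 by -0.32 (SE 0.09, adjusted p = 0.0530), neither of them called. ABCA1 overlaps NIPSNAP3B, which differed by 0.25 (SE 0.09, adjusted p = 0.134), and NR1H3 overlaps ACP2, at 0.31 (SE 0.09, adjusted p = 0.0568). These neighbours were chosen by position, after the members' values were seen. APOE lies between TOMM40, the mitochondrial import pore gene, which fell by 0.41 (SE 0.08, adjusted p = 0.0143), and the apolipoprotein gene APOC1, at -0.01 (SE 0.09, adjusted p = 0.964).

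**Figure D5:**
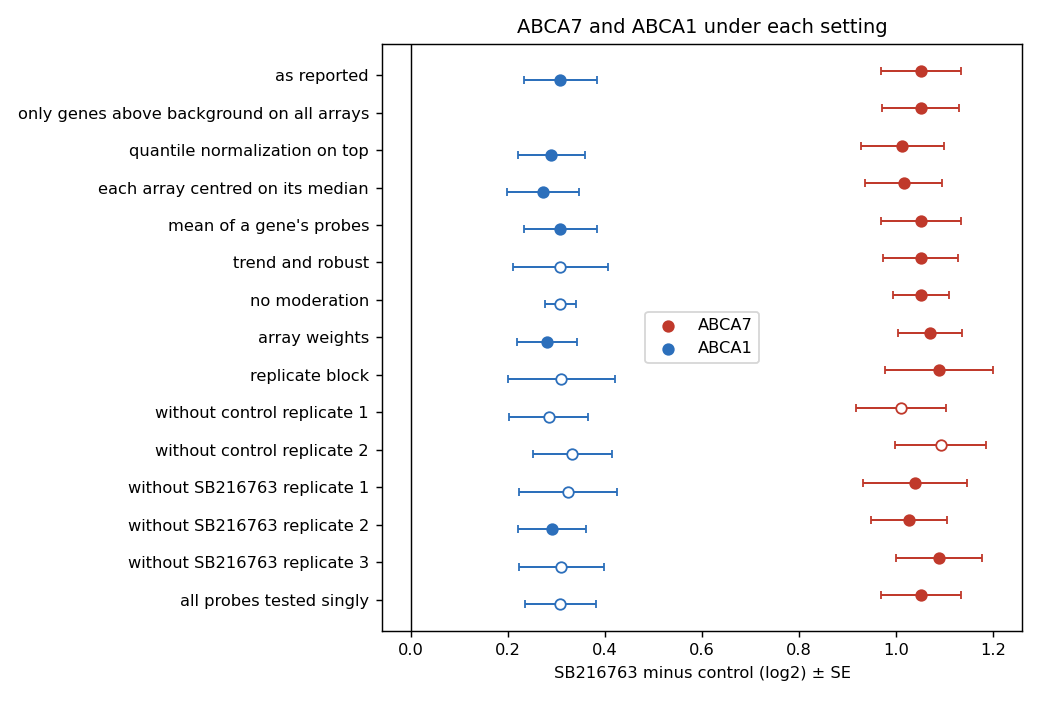
Log2 differences ± SE of ABCA7 (red) and ABCA1 (blue) as reported and under each alternative setting; filled points have an adjusted p under 0.05. ABCA7 stays between 1.01 and 1.09 and is open only without either control array, whereas ABCA1 stays between 0.27 and 0.33 and is open in 8 of 13 settings.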

How the data were processed

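The authors deposited 1 table of log2 expression values for 33297 probes on 5 arrays, made with Affymetrix Expression Console per the submitters' processing notes (for version, summarisation and build: not given in the sources used here). That the values are log2 follows from their range, 1.95 to 14.84. No further normalization was applied, and probe levels were compared only with background. Probes naming 1 gene (19460) were kept, 1 per gene; 1754 named several and 12083 were unnamed here. Groups and replicate numbers came from sample titles; the labels name no batch.

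The test was limma 3.58.1 under R 4.3.3, lmFit then plain eBayes on 18417 genes, two-sided, at 7.62 total degrees of freedom. The 14 alternatives change the scaling, background filter, probe choice, variance model, replicate block or leave out 1 array. The procedure was tested on simulated data. Figures used pandas 2.3.3 and matplotlib 3.10.9. The members, lists and tests were chosen with earlier results of these data known. Named were all members, SREBF1, RXRA, RXRB and INSIG1, up to 4 called genes per list by p, and the 3 genes most like each called member; some items are not reported here, and others were named after their values were seen. The number of arrays limits the precision.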

Additional observations from a re-analysis of the deposited data

How the results depend on the processing

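Over 14 alternatives, ABCA7 was called in 12 and ABCA1 in 5 of the 13 that tested it; both kept their direction in all of these. The 2418 calls over all genes became 251 without moderation and 4720 with array weights, and 0 to 2859 with 1 array left out. The 2 calls among the members became 1, ABCA7, in each of 5 settings: among brighter genes, with trend and robust settings, without moderation, with the replicate block and with all probes tested singly. They were 0 to 2 with 1 array left out. The 25 list calls became 6 without moderation and 13 with all probes tested singly, and 0 to 27 with 1 array left out. Leaving out a control array leaves 1, assumed to vary like the treated arrays. The replicate numbers are only shared labels: deviations of same-numbered arrays correlated at -0.05 and -0.10, and the block gave 1830 calls. No control carries the number of SB216763 replicate 3, so the block takes up that array. Its differences equal those without SB216763 replicate 3, and these settings are not independent. Why calls moved with a setting was not tested, beyond fewer arrays or more probes. ABCA1, ABCG1 and 7 of 12 A-subfamily genes lay at or under background, which limits what their differences show.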
